A study of Mus musculus with 6 samples.

Results

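Bhlhe40 and 9 genes of the circadian clock (Bhlhe41, Per1, Per2, Cry1, Cry2, Nr1d1, Nr1d2, Clock and Dbp) were followed in blood stem and progenitor cells with and without a deletion in Raptor, the gene Rptor. These 10 genes were chosen by name, out of 18193 genes that the arrays measured with a probe set naming a single gene. They are read by 18 of 34945 such probe sets, a probe set being the group of short array probes that reports 1 transcript. Where a gene had several, the probe set with the highest mean over all 6 arrays stands for the gene, and the others are given beside it. Bhlhe40 heads the set because it differed between the genotypes in these same arrays, so its difference is given as a description and not as a test. The other 9 genes were listed for their place in the clock.

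The cells were sorted from mouse bone marrow and carried the surface pattern Flt3-Lin-Sca1+cKit+, which enriches for stem and early progenitor cells. All mice were on a C57BL/6 background and had loxP sites around exon 6 on both Raptor alleles. The 3 Raptor mutant arrays came from mice that also carried the MxCre transgene, in which an interferon-responsive promoter drives the recombinase, and the 3 wild type arrays from mice lacking the transgene. Every mouse was injected 3 times over 5 days with polyinosinic-polycytidylic acid (pIpC), which induces interferon, at a dose of 15 µg per g. The sort followed 5 weeks after that course. The Mx promoter responds to interferon in many cell types, so the recombinase is not specific to the sorted cells. The labels give neither age nor sex nor the time of day of the sort, and do not say whether an array stands for 1 mouse or a pool. What p-values measure is therefore the spread among arrays, part of which may be technical.

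The circadian clock is a feedback loop of transcription that runs in most cells, blood stem cells included. CLOCK pairs with BMAL1 (gene Arntl) and activates genes through the E-box CACGTG, among them the Per and Cry genes, whose proteins return to the nucleus and inhibit CLOCK and BMAL1. BHLHE40 and BHLHE41, also called DEC1 and DEC2, bind the same E-box and repress from it, and REV-ERB alpha and beta (Nr1d1 and Nr1d2) repress Arntl. DBP is an output factor that carries the rhythm to D-box genes. Outside the clock, Bhlhe40 responds to hypoxia, cytokines and other stimuli and acts in T cells, macrophages and mast cells.

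The E-box is the sequence that BHLHE40, BHLHE41 and CLOCK with BMAL1 bind, so the stretches of the set's promoters that hold it are shown. RefSeq promoters (GRCm38.p6, 250 bases before to 50 bases after a gene's start) were at hand for 8 of the 10 genes, with 11 promoters in all, and not for Bhlhe40 and Per2. The letters CACGTG, which read the same on both strands, occurred in 3 of the 11, 1 each of Bhlhe41, Per1 and Cry1. They lie 153, 166 and 60 bases before the respective gene start. Each stretch below is 100 bases, 5′ to 3′ along the gene's strand, with the E-box in capitals.

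Bhlhe41, chr6:145865521-145865620, minus strand: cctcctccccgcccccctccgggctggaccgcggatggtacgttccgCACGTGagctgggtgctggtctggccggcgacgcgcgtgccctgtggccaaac

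Per1, chr11:69098736-69098835, plus strand: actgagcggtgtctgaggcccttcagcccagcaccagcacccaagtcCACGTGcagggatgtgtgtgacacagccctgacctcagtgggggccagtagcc

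Cry1, chr10:85185062-85185161, minus strand: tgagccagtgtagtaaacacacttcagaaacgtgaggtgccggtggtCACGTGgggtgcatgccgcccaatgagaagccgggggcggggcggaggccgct

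Of all 32851 RefSeq promoters of this length, 7.15% held the E-box. The D-box letters TTATGTAA or TTACGTAA (1.06% of all promoters), the ROR and REV-ERB letters TAGGTCA (2.61%) and the cyclic AMP element TGACGTCA (1.79%), each searched on both strands, were in none of the 11 windows. No match overlapped another. A match describes these letters alone, and these windows leave out introns and distant sites.

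The arrays had log2 medians of 6.85 to 6.94 and lower quartiles of 5.15 to 5.37. Sex-linked RNA overlapped with the genotype in part. The log2 signal of Kdm5d, a gene on the Y chromosome, was 10.6 on wild type array 2, 9.53 on wild type array 3 and 3.60 to 3.88 on the remaining arrays. Y-linked signal was thus present on 2 of 3 wild type and 0 of 3 mutant arrays, and its part in a difference between the genotypes cannot be fully told apart. Wild type array 1 is the only control without it. For the named genes, values against that array alone are given where they differ from the main value by over 1.5 times. Those that turn the sign are given among the processing alternatives. Wild type arrays 2 and 3 were also less like the other arrays, so such values do not single out Y-linked signal. The targeted gene Rptor had a log2 difference of 0.22 ± 0.29 (SE, mutant minus wild type) with an adjusted p of 0.77 in limma, and since the position of its probes relative to the deleted exon was not analysed here, it is no check of the deletion. Of the genes behind the sort, Kit stood between 10.7 and 11.2 on the 6 arrays. Flt3 stood between 9.51 and 10.8, above the median of every array, although the sort took cells without the surface protein. Ly6a, the gene of Sca1, was named by no single-gene probe set used here.

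Bhlhe40 signal was clearly separated between the genotypes. On the log2 scale it was 7.51, 7.05 and 6.62 on wild type arrays 1, 2 and 3, and 9.58, 9.55 and 9.66 on mutant arrays 1, 2 and 3. The lowest mutant array was thus above the highest wild type array by more than the whole range of the wild type arrays (0.889). Group means were 7.06 ± 0.44 and 9.60 ± 0.06 (SD, n = 3 each), a difference of 2.54 ± 0.23 (SE) or 5.81-fold, with a 95% interval of 1.998 to 3.077 on the log2 scale. A single probe set names the gene.

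In size this difference ranked 22 among the 18193 genes. At an adjusted p under 0.05 in limma (Benjamini-Hochberg over all genes), 0.110% of all genes were called, with 0.0550% higher and 0.0550% lower in mutant arrays (10 genes each). Bhlhe40, with an adjusted p of 0.013, was the 1 member called, and since it was picked from this contrast nothing is read from that count. Against wild type array 1 alone, without the 2 arrays that carry Y-linked signal, the difference was 2.09. With 1 control left, no call is read from that fit. The call was lost without mutant array 1 (adjusted p = 0.068, limma) and without mutant array 3 (adjusted p = 0.064, limma), with differences of 2.55 and 2.51. It was lost too after quantile normalization was applied again (adjusted p = 0.053, limma), and over all alternatives the adjusted p ran from 0.0044 to 0.27.

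**Figure D1:**
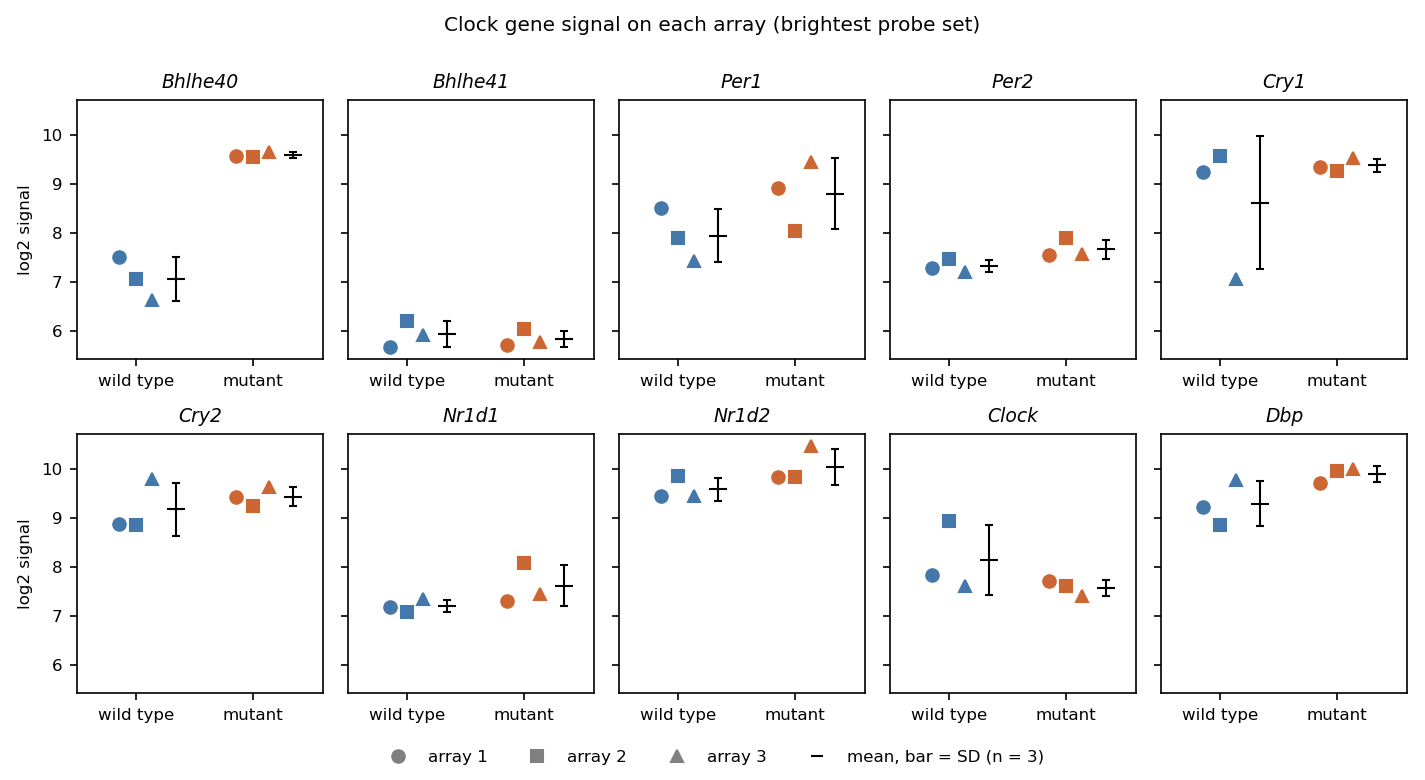
Signal (log2) of the brightest probe set of each gene on the 3 wild type (blue) and 3 mutant (orange) arrays, with marker shape for the array number and the group mean ± SD (n = 3) in black. Bhlhe40 separates the groups by 2.54 on average, Per2 by a small margin, and the other 8 genes overlap. Signal depends on the probes, so levels are not comparable between panels.

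Bhlhe41, the paralogue of Bhlhe40 and the other DEC repressor, showed no such separation. Its brighter probe set read 5.66, 6.198 and 5.92 on wild type arrays and 5.72, 6.02 and 5.77 on mutant arrays. All 6 values lie between the lower quartile and the median of their arrays, and the groups overlap throughout. The difference was -0.09 ± 0.19 (SE, log2; adjusted p = 0.86, limma), with a 95% interval of -0.53 to 0.35. The sign turned after quantile (0.035) or cyclic loess normalization (0.069). The dimmer probe set had a difference of -0.03 ± 0.16 (SE).

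BHLHE40 and BHLHE41 belong to a family of repressors with a basic helix-loop-helix and an Orange domain, which also holds the Hes and Hey genes, targets of Notch signalling. Of 9 measured Hes and Hey genes, 2 had a log2 difference above 0 and 7 below, between -0.29 and 0.13, and none passed at an unadjusted or adjusted p under 0.05. The median was -0.15, against -0.07 over all 18193 genes.

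The Per genes encode the limiting partners of the repressor complex. Per1 read 8.51, 7.89 and 7.42 on wild type arrays and 8.93, 8.03 and 9.45 on mutant arrays. Mutant array 2 lay within the wild type range and the other mutant arrays above it. The difference was 0.86 ± 0.40 (SE, log2) or 1.82-fold, with a 95% interval of -0.07 to 1.79, and did not pass (adjusted p = 0.53, limma). Mutant array 2 weighed on it: without that array the difference was 1.25, and without mutant array 3 it was 0.54. Against wild type array 1 alone it was 0.29.

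Per2 was read by 3 probe sets that disagreed in size. The brightest stood at 7.29, 7.46 and 7.21 on wild type and at 7.54, 7.89 and 7.56 on mutant arrays, so the groups do not overlap, though the gap between them is small. Its difference of 0.35 ± 0.17 (SE, log2) did not pass (adjusted p = 0.55, limma), and the mean of the probe sets gave 0.57. The next probe set read 7.32, 5.51 and 6.58 on wild type and 7.87, 7.92 and 7.85 on mutant arrays. Here the mutant arrays were tightly grouped and the wild type arrays spread over a wide range, and the difference was 1.41 ± 0.41 (SE, log2; adjusted p = 0.38 in limma fitted over all single-gene probe sets). The third had a difference of -0.05 ± 0.17 (SE), with overlapping groups. The size of the Per2 difference therefore depended on which probe set was read, and the third showed no clear direction.

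The cryptochromes CRY1 and CRY2 are the repressors that bind CLOCK and BMAL1 directly. Cry1 read 9.24, 9.56 and 7.05 on wild type arrays and 9.35, 9.27 and 9.52 on mutant arrays. Wild type array 3 stood apart from the other 5 arrays, all of which lay between 9.24 and 9.56. The difference of 0.76 ± 0.59 (SE, log2; adjusted p = 0.66, limma) came to -0.020 without that array, to 1.24 without wild type array 2 and to 0.14 against wild type array 1 alone. The gene has a single probe set here, so no other measure of Cry1 on that array was available.

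Cry2 was highest where Cry1 was lowest. It read 8.88, 8.86 and 9.80 on wild type arrays and 9.44, 9.25 and 9.63 on mutant arrays, with wild type array 3 above every mutant array. The difference was 0.26 ± 0.28 (SE, log2; adjusted p = 0.73, limma). Without wild type array 3 it was 0.57, and all 3 mutant arrays were then above the remaining wild type arrays. Leaving out wild type array 1 or 2 gave 0.11 or 0.10, and leaving out mutant array 3 gave 0.17. Against wild type array 1 alone the difference was 0.56.

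The nuclear receptors REV-ERB alpha and beta form the second loop of the clock. Nr1d1 read 7.19, 7.08 and 7.34 on wild type arrays and 7.31, 8.09 and 7.45 on mutant arrays, with mutant array 2 clearly above the rest. Its difference of 0.41 ± 0.23 (SE, log2; adjusted p = 0.58, limma) was 0.18 without that array.

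Nr1d2 had a similar difference at both of its probe sets. The brighter read 9.45, 9.86 and 9.46 on wild type and 9.85, 9.83 and 10.5 on mutant arrays, and wild type array 2 overlapped the mutant arrays. Its difference was 0.46 ± 0.23 (SE, log2; adjusted p = 0.55, limma), or 0.25 without mutant array 3. The dimmer read 9.03, 9.02 and 9.03 on wild type and 9.68, 9.48 and 9.29 on mutant arrays, without overlap. That difference was 0.46 ± 0.16 (SE, log2; adjusted p = 0.47 in limma fitted over all single-gene probe sets).

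**Figure D2:**
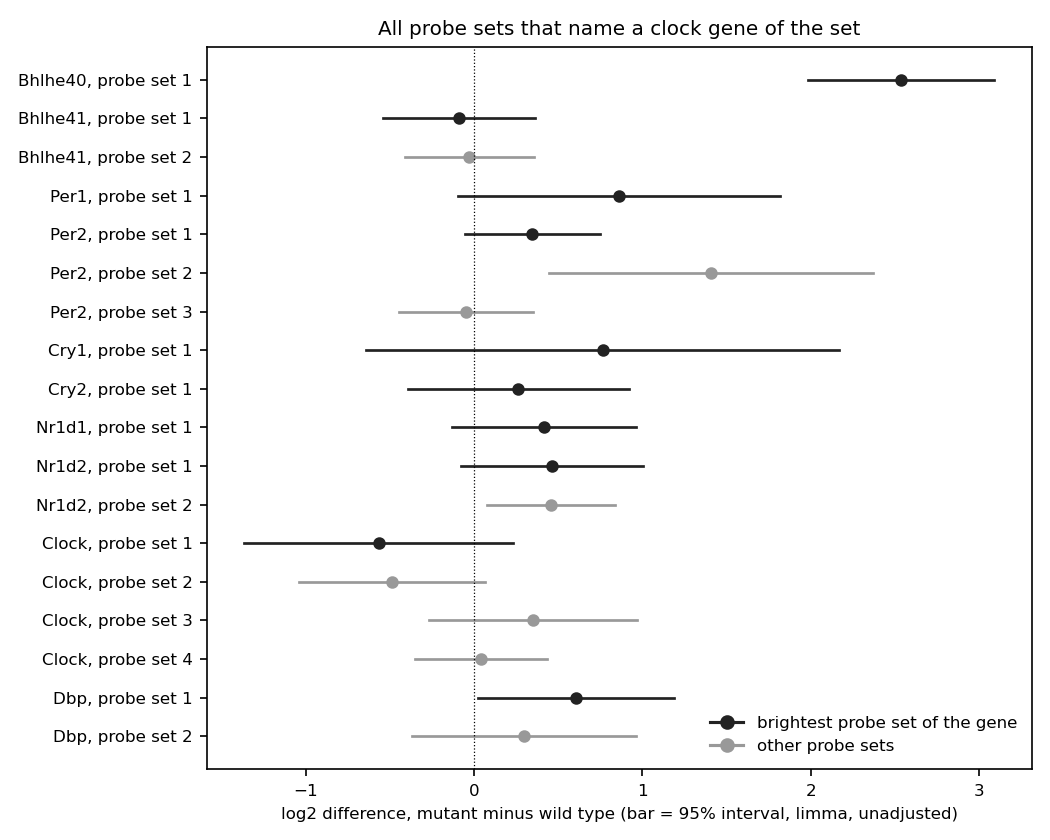
Difference in log2 signal, mutant minus wild type, at each of the 18 probe sets, from limma fitted over all single-gene probe sets; bars are unadjusted 95% intervals, and black marks the brightest probe set of a gene. The Bhlhe40 interval lies above 1.98, the 3 Per2 probe sets range from -0.05 to 1.41, and the 4 Clock probe sets lie on both sides of 0.

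Clock, the activator, was 1 of the 2 members with a difference below 0. Its brightest probe set read 7.85, 8.95 and 7.62 on wild type arrays and 7.71, 7.604 and 7.40 on mutant arrays. Wild type array 2 was above the other 5 arrays, which lay close together. The difference was -0.57 ± 0.33 (SE, log2; adjusted p = 0.60, limma), and it came to -0.16 without that array, to -0.28 against wild type array 1 alone and to -0.17 with the mean of its probe sets. A second probe set behaved alike, with 8.13 on wild type array 2 against 6.97 to 7.69 elsewhere and a difference of -0.49 ± 0.24 (SE). The 2 dimmest probe sets of Clock had differences of 0.35 ± 0.26 and 0.04 ± 0.17 (SE), and the dimmest read between 3.75 and 4.13, under the lower quartile of every array.

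Dbp, the output factor, read 9.24, 8.87 and 9.78 on wild type arrays and 9.72, 9.97 and 10.01 on mutant arrays. Wild type array 3 reached into the mutant range, and the other wild type arrays were below it. Its difference of 0.60 ± 0.25 (SE, log2) or 1.52-fold had an unadjusted p of 0.040 and an adjusted p of 0.48 in limma, and it was 0.39 without wild type array 2. The other probe set read 8.58, 8.10 and 9.17 on wild type and 8.65, 9.02 and 9.07 on mutant arrays, again with wild type arrays 2 and 3 at the extremes, and its difference was 0.30 ± 0.28 (SE). Both Dbp probe sets and Cry2 thus had their highest wild type value on array 3, the array on which Cry1 and Per1 were lowest.

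Of the 9 genes besides Bhlhe40, none was called (0.110% of all genes were). Adjusted p-values ran from 0.48 for Dbp to 0.86 for Bhlhe41 (limma). At an unadjusted p under 0.05, 1 of the 9 was higher (Dbp), where 5.81% of all genes were, and none was lower, where 4.24% of all genes were. Groups did not overlap, mutant higher, in Per2 alone among the 9, where 8.08% of all genes did so, and mutant lower in none, where 7.98% did. Log2 differences were above 0 in 7 of the 9, with a median of 0.41, while 40.4% of all genes lay above 0 and their median was -0.07. The members were chosen with results of these data known, so these counts describe the set and are not a test of it.

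The spread also differed. The SD among wild type arrays exceeded that among mutant arrays in 6 of the 10 genes, and in 75.7% of all genes. Per1, Per2, Nr1d1 and Nr1d2 spread more among the mutant arrays. Cry1 had an SD of 1.37 in wild type and 0.13 in mutant arrays. Likeness over all probe sets (Pearson's r) was 0.985 to 0.988 within the mutant group and 0.957 to 0.967 within the wild type group. Wild type array 1 had r of 0.984, 0.983 and 0.977 to mutant arrays 1, 2 and 3. To wild type arrays 2 and 3 it had 0.962 and 0.967. Neither of those 2 controls, the same 2 that carry Y-linked signal, exceeded 0.968 with any array. Single genes that stood apart on them were thus read on arrays less like the rest. Values against wild type array 1 alone leave out both traits at once, and the 2 cannot be told apart. The cause was not tested.

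No other gene of the clock pathway was called, against 0.110% of all genes. Of 29 listed genes, 26 were measured. Of these, 12 had a log2 difference above 0 and 14 below, with a median of -0.04. At an unadjusted p under 0.05, 1 was higher (Klf10), where 5.81% of all genes were, and 1 was lower (Hlf), where 4.24% were.

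Arntl, which encodes BMAL1, the partner of CLOCK, is named for that role and falls outside the rule for named genes. It read 7.40, 7.36 and 6.54 on wild type arrays and 7.10, 6.96 and 7.49 on mutant arrays, and the groups overlap fully. Its difference was 0.09 ± 0.27 (SE, log2; adjusted p = 0.91, limma), and -0.19 without wild type array 3. Of the 5 measured activators, the other 4 lay below 0. Npas2, a stand-in for CLOCK, had a difference of -0.31 ± 0.17 (adjusted p = 0.59, limma), and Rora, which activates Arntl against REV-ERB, had one of -0.45 ± 0.28 (SE). Neither size was stable: Npas2 came to -0.15 after cyclic loess normalization and to -0.023 against wild type array 1 alone, and Rora to -0.16 with the mean of its probe sets, -0.24 without wild type array 2 and -0.74 without wild type array 3.

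Among the further repressors, Per3 had a difference of 0.01 ± 0.23 (SE, log2). Ciart, an inhibitor of CLOCK and BMAL1, stood at 7.46 on wild type array 3 and between 6.17 and 6.34 on the other 5 arrays. It was the same array that stood apart for Cry1. Of 9 measured kinases and ubiquitin ligases that act on clock proteins, 4 lay above 0 and 5 below, and Csnk1e, a casein kinase that marks PER proteins for decay, had a difference of -0.32 ± 0.17 (adjusted p = 0.56, limma), or -0.21 without mutant array 2.

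Of 9 output genes, 5 lay above 0 and 4 below. Hlf, a D-box factor related to DBP and also a stem cell gene, read 11.3, 11.2 and 11.2 on wild type and 10.5, 10.6 and 10.3 on mutant arrays. The groups do not overlap, and the difference of -0.81 ± 0.15 (SE, log2), opposite in sign to that of Dbp, did not pass (adjusted p = 0.15, limma). Klf10 and Usp2, a factor and a deubiquitinase with daily rhythms in several tissues, had differences of 0.50 ± 0.21 and 0.50 ± 0.23 (adjusted p = 0.49 and 0.53, limma). Klf10 was at 0.32 without mutant array 2, and Usp2 at 0.24 against wild type array 1 alone.

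**Figure D3:**
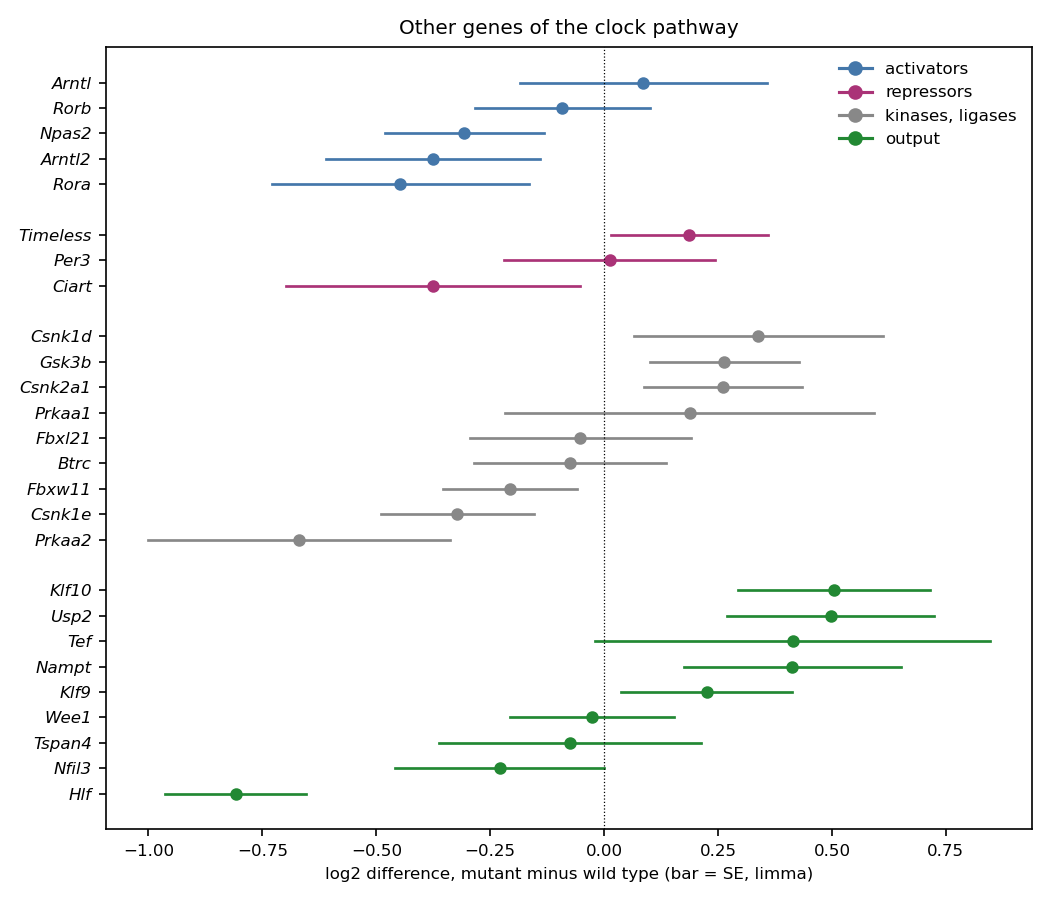
Difference in log2 signal, mutant minus wild type, with its SE for 26 other genes of the clock pathway, grouped by role. Values run from -0.81 (Hlf) to 0.50 (Klf10), and 4 of 5 activators lie below 0, none past the threshold.

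Bhlhe40 and Per genes also respond to signals outside the clock, and lists of such genes were read beside them. Of 11 hypoxia targets, 5 lay above 0 and 6 below, with a median of -0.11. Ddit4, an inhibitor of mTORC1, had a difference of -1.49 ± 0.29 (adjusted p = 0.15, limma), and Ankrd37 had one of 0.43 ± 0.18 (adjusted p = 0.49, limma), or 0.27 against wild type array 1 alone. Of 19 immediate early genes, the class in which Per1 is often counted, 18 lay below 0 with a median of -0.45, where 59.6% of all genes lay below 0. At an unadjusted p under 0.05, 9 of the 19 were lower (4.24% of all genes), and in 11 the groups did not overlap, mutant lower (7.98% of all genes). Nr4a1, Btg2 and Egr1 had differences of -1.61, -1.10 and -1.02 (adjusted p = 0.16, 0.14 and 0.16, limma), the direction opposite to that of Per1. None of these was called.

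Signal of markers of other blood cells stood apart between the genotypes, and Bhlhe40 is known in several of those cells. The summed linear signal of 11 mast cell and basophil markers was 2373 to 3043 on wild type and 5405 to 8489 on mutant arrays. Of these markers 9 lay above 0, and 5 were higher at an unadjusted p under 0.05 (5.81% of all genes). The brightest were Cpa3, a protease of mast cells, Ms4a2, a chain of the IgE receptor, and Mcpt8, a protease of basophils. Their differences were 0.77 ± 0.37, 2.77 ± 0.38 and 1.84 ± 0.34 (SE, log2; adjusted p = 0.54, 0.072 and 0.15, limma). Of the mast cell chymases, Mcpt4 read 4.25 to 4.68 on all arrays, under the lower quartile, while Cma1 had a difference of 2.15 ± 0.38 (adjusted p = 0.14, limma) without overlap. Against wild type array 1 alone, Cpa3 was at 1.32 and Mcpt8 at 1.11. The 12 macrophage and dendritic cell markers summed to 8101 to 9586 on wild type and 9163 to 16605.5 on mutant arrays, with 10 above 0. Lyz2, lysozyme and the brightest of them, was lower on every mutant array, with a difference of -0.65 ± 0.19 (adjusted p = 0.31, limma). H2-Aa and H2-Ab1, class II genes, had differences of 2.13 ± 0.34 and 0.83 ± 0.32 (adjusted p = 0.10 and 0.46, limma), and H2-Ab1 was at 1.28 against wild type array 1 alone and at 0.50 without mutant array 1. The 11 T and NK cell markers summed to 3135 to 3500.3 and 4090.5 to 4911, with 5 above 0, 6 below and a median of -0.003. Gzmb, granzyme B, which mast cells can also make, was the 1 marker called in the mast cell, macrophage and T cell lists (0.110% of all genes). Its difference was 4.21 ± 0.38 (adjusted p = 0.013, limma; call lost in 4 of 18 alternatives). Without it the other 10 markers summed to 3072 to 3445.5 and 3464 to 3791.

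Other marker sums were lower on the mutant arrays. The 11 granulocyte markers summed to 27525 to 35783.7 on wild type and 11150.0 to 14803 on mutant arrays. Of these, 10 lay below 0 and 2 were called lower (0.0550% of all genes). The 13 stem cell markers summed to 19566 to 21612 and 15780.1 to 16332, with 10 below 0 and 1 called lower. The 7 megakaryocyte markers summed to 4503.5 to 5141 and 1967 to 2950 (6 below 0), while B cell and erythroid sums overlapped between the groups.

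In bulk RNA, a change in the share of a cell type and a change of RNA per cell cannot be told apart. Among the mutant arrays the mast cell sum ranged from 5405 to 8489 on the linear scale. Bhlhe40 read 9.55 to 9.66 on the log2 scale, so the 2 ranges are not comparable in size. On mutant array 2 the macrophage sum of 9163 lay within the wild type range. This placing rests on Lyz2, the brightest of the 12 markers. Its log2 signal was 12.1 to 12.6 on wild type and 11.7 to 12.0 on mutant arrays. In 7 of the 12 the groups did not overlap, mutant higher, and in 1 mutant lower (8.08% and 7.98% of all genes). The part of these cells in the Bhlhe40 difference was not tested.

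**Figure D4:**
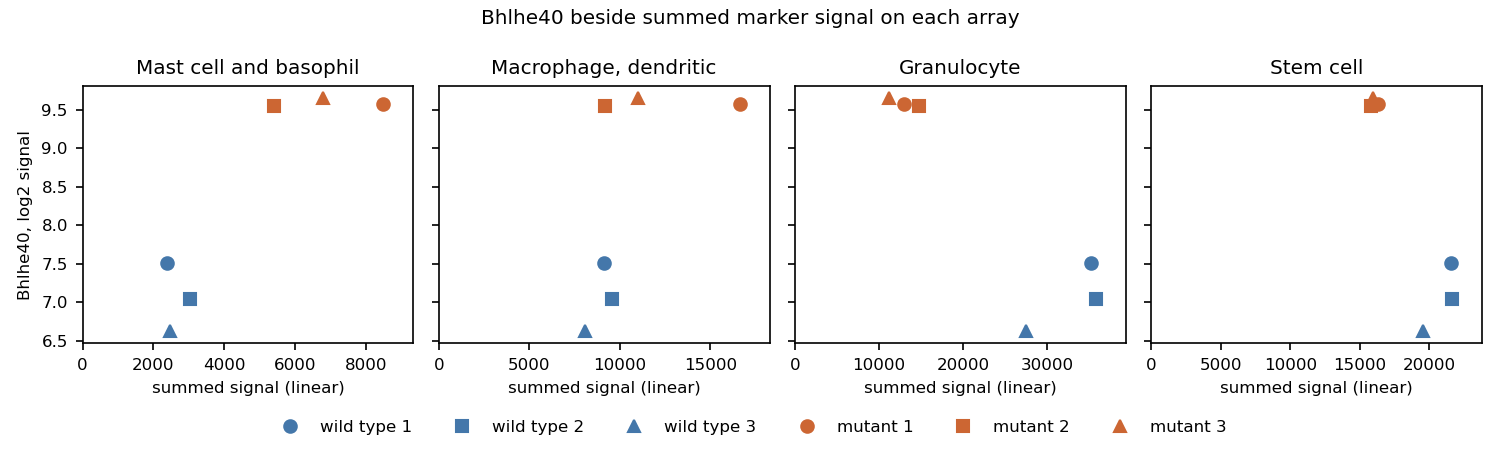
Bhlhe40 signal (log2, vertical) against the summed linear signal of each marker list (horizontal, from 0) on the 6 arrays, wild type in blue and mutant in orange. Mast cell sums separate the genotypes upwards (5405 to 8489 in mutant arrays), granulocyte and stem cell sums downwards. The macrophage sum of mutant array 2 lies within the wild type range, a placing that rests on Lyz2, the brightest marker. Of the 12 macrophage markers, 7 read higher on every mutant array than on any wild type array, and Lyz2 lower.

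The genes whose signal over the 6 arrays was most like that of Bhlhe40 were sought among 8791 genes with a mean above the median of all genes and a symbol that is not a clone or predicted name. By Pearson's r the first 5 were Abhd17b, Ydjc, Ythdc2, Rsu1 and Hirip3, with r of 0.986 to 0.992 over 6 arrays. Most of this likeness is the split between the genotypes, which all 5 share. Their differences were smaller than that of Bhlhe40, from 0.30 for Rsu1 to 1.15 for Ydjc (adjusted p = 0.54 and 0.084, limma), and none was called. Among the other members r with Bhlhe40 ran from -0.53 for Clock and -0.32 for Bhlhe41 to 0.73 for Per1 and 0.78 for Per2. These are descriptions over 6 arrays that share their groups.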

How the data were processed

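RNA of 3 wild type and 3 Raptor mutant samples was amplified with a whole-transcriptome kit, labelled with biotin and hybridised to single-colour arrays, per the labels' protocols. For each array the authors deposited normalized intensity values of probe sets. Per the submitters' processing notes they used RMA, and the sources used here do not give its version or settings. RMA is meant to even out the arrays' distributions, but those deposited were not identical, with log2 lower quartiles of 5.15 to 5.37. It reports no detection calls, so dim genes have no floor of 0. The deposited intensity values are linear (array medians of 115 to 123) and log2 was taken. The number of arrays limits the precision.

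Of 45101 probe sets, 64 controls, 9160 without a gene and 932 naming several were left out. The brightest probe set stood for each of 18193 genes. Limma 3.58.1 in R 4.3.3 (lmFit, eBayes) compared mutant with wild type over all genes without covariates, and p-values are two-sided and Benjamini-Hochberg adjusted over all genes. A call is an adjusted p under 0.05. The procedure was tested on simulated data. Members and lists were chosen with earlier results of these data known. Named genes were the members, Rptor, up to 4 genes with the smallest p per list, the brightest markers and the 5 genes most like Bhlhe40; Kit, Flt3, Mcpt4, Cma1, Gzmb, Kdm5d and Arntl are named for their roles or their part in a result. Symbols came from the platform annotation. Alternatives covered scaling, choice of probe sets, dim genes, variance model, weights, threshold, Y-linked signal, the replicate number and leaving out arrays.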

Additional observations from a re-analysis of the deposited data

How the results depend on the processing

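Of 18 alternatives, 5 leave each difference as it is by construction. Over the other 13, the 10 clock genes kept their direction in 124 of 130 values, and the other 31 genes named with a difference in 386 of 403. Bhlhe40 stayed between 2.09 and 2.76 (log2), with adjusted p from 0.0044 to 0.27 in limma. The count of members called higher was 1 in the main fit and 0 after quantile normalization was applied again and with a covariate for Y-linked signal. Calls also fell over all genes, from 10 higher and 10 lower in the main fit. They were 3 and 3 after quantile normalization again, and 0 and 0 with the covariate. Leaving out each array in turn gave 0 to 1, and members called lower were 0 throughout. Each group has arrays labelled 1, 2 and 3, but deviations of same-numbered arrays correlated at 0.18, -0.03 and 0.06, so the numbers were not taken as pairs; with the replicate number as a block 0 members were called higher and Bhlhe40 had an adjusted p of 0.062 in limma (10 genes called in place of 20).

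Some differences changed sign. Bhlhe41 was 0.035 after quantile and 0.069 after cyclic loess normalization, 0.18 both with the Y covariate and without the arrays with Y-linked signal, and 0.047 without wild type array 2 (without single arrays it ran from -0.22 to 0.047). Cry1 was -0.020 without wild type array 3 and up to 1.24 without the others, one at a time. In the same order (Y covariate, without Y-linked arrays, without wild type array 3), Rptor was -0.19, -0.23 and -0.037, Ciart 0.023, 0.11 and 0.025, Arntl -0.15, -0.21 and -0.19, and Per3 -0.31, -0.37 and -0.19. Leaving out single arrays, the other ends of the range were 0.45 for Rptor, -0.62 for Ciart, 0.24 for Arntl and 0.202 for Per3. Without mutant array 3 Arntl was -0.066 and Per3 -0.099. Per3 was also -0.061 after quantile and -0.044 after cyclic loess normalization and -0.074 with the mean of its probe sets. The cause of these changes was not tested. With the lower 50% of genes left out, Bhlhe41, Per2 and Nr1d1 were not among the genes tested.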

Other observations

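Per1 is also a known target of the glucocorticoid receptor, and a list of 10 such targets showed a pattern among the mutant arrays that was noticed after the values were seen. Mutant array 2 was the lowest of the 3 mutant arrays in 8 of the 10, as it was for Per1. The same held for 5 of the 10 clock genes, 9 of 19 immediate early genes and 28.1% of all 18193 genes. Since the pattern was seen first, these counts are not a test of it. Over the 6 arrays Fkbp5, Cebpd and Sgk1, chosen after their values were seen, correlated with Per1 at r of 0.943, 0.925 and 0.821. Tsc22d3 was at 0.112, and the lowest of the 10 were Ddit4 at -0.267 and Dusp1 at -0.384. Between the genotypes the list did not move one way. Of its members 6 lay above 0 and 4 below, with Dusp1 at -0.62 (adjusted p = 0.31, limma). Mt1 and Mt2, metallothioneins, were called higher, where 0.0550% of all genes were. Their differences were 3.54 and 3.09 (log2, adjusted p = 7.0e-04 and 0.022, limma). The Mt2 call was lost in 10 of 18 alternatives and the Mt1 call in 2. These are descriptions over 6 arrays.

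Outside the 10 genes, the E-box occurred in promoters of 3 of 23 clock pathway genes with a RefSeq promoter, namely Ciart, Tef and Tspan4. Among all genes 8.09% had it in at least 1 promoter.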
